A study of Drosophila melanogaster with 9 samples.

Results

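The Ataxin-7 mutant embryos of Drosophila melanogaster were compared with OregonR wild-type embryos by sequencing of polyadenylated RNA. The comparison comprised all 6 libraries that the labels assign to ataxin-7 or OregonR in experiment 1013, 3 of each genotype, out of 9 libraries in the series. Ataxin-7 (Atxn7) is a subunit of the deubiquitinating module of the coactivator complex SAGA, which removes ubiquitin from histone H2B. The question put in the series' title and design is how gene expression differs from wild type when Ataxin-7 is missing. Both genotypes were raised on standard food at 25 °C, eggs were gathered over 2 h and aged for 1 h at that temperature, and embryos at stage 5 were picked by hand. The mutant allele is not given in the sources used here, and neither is whether the mothers carried it. The genotype tags of replicates 2 and 3 of the mutant read differently from their titles, and the titles were followed. The labels call the 3 libraries of each genotype biological triplicates.

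Stage 5 is the cellular blastoderm. The egg is loaded with maternal RNA, the early nuclear divisions run on that store, and at this stage much of the store is being cleared while the embryo's own genome is switched on. The first zygotic genes divide the embryo along its anterior-posterior and dorsal-ventral axes, and a small set of zygotic genes drives the formation of cell membranes between the nuclei. Maternal transcripts and zygotic transcripts therefore sit side by side in every library of this stage.

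Values were RPKM, read counts scaled for gene length and an adjusted library size. The size behind the RPKM was 1.022, 1.074 and 1.004 times the reads in genes for ataxin-7 replicates 1, 2 and 3. It was 0.976, 0.959 and 0.977 times the reads in genes for OregonR replicates 1, 2 and 3. A gene was tested when 3 or more of the 6 libraries reached 1 RPKM, which held for 7049 of 15682 genes in the table. Differences below are log2 fold changes of ataxin-7 minus OregonR on the log2(RPKM + 1) scale with their standard error (SE), and a gene was called when its adjusted p in the limma fit lay under 0.05. At this threshold 32.4% of tested genes were called, 16% higher and 16.4% lower in ataxin-7 embryos, and a count in a gene list has to be read against these shares. On recovered reads with limma-voom, scaled by the reads in genes, 60.5% of the called genes were higher, against 49.3% here. The part of the scaling in this difference was not tested. When ataxin-7 replicate 1 was left out the shares were 51.4% in all, 21.0% higher and 30.4% lower. The share of tested genes whose 2 groups did not overlap was 54.0%, with 30.1% higher and 23.9% lower. Most genes named below from a list were chosen among called members whose groups did not overlap. That their groups are apart was set by this choice and is not a result.

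The libraries held 74789686 to 81999994 reads in genes for ataxin-7 and 76376154 to 89976637 for OregonR. Ataxin-7 replicates 2 and 3 resembled each other closely across tested genes, which are not independent replicates (r = 0.996), whereas replicate 1 stood apart from both (r = 0.923 and 0.905). It was the highest of all 6 libraries for 3243 tested genes and the lowest for 1871. Among OregonR libraries r was between 0.982 and 0.997, and replicate 3 was the OregonR library nearest to each ataxin-7 library. Every result below is therefore given with replicate 1 beside replicates 2 and 3. The number of called genes also rested on single libraries. It was 2285 with all 6 libraries, 3541 without ataxin-7 replicate 1, 590 without ataxin-7 replicate 2, 311 without OregonR replicate 1 and 201 without OregonR replicate 2. Of the 2285 called genes, 2179 were also called in the same direction without ataxin-7 replicate 1, and 165 were called in the same direction in every fit that left out 1 library. The gene length behind the RPKM was close to the whole span, introns included, for most genes with introns. Which reads were counted is not given in the sources used here, and reads of overlapping genes may be shared. Among the genes named below, ci, twi, brk, scw, Sxl, Z600, nullo, spi, Egfr, neur, mib1, CanB2, Hen1, gcl, cact, exu, yl, crq, Syx1A, Pglym78, ScsbetaA, Cyp310a1, RpS5a, Jarid2, His3.3A, mira, cpa, Arpc2, Nop60B, Uhg1, snRNA:U12 and both snoRNA genes with a host overlap another gene. In bulk RNA, fewer cells of a type and less RNA per cell cannot be told apart.

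The targeted gene does not mark the mutant libraries by a loss of its RNA. Atxn7 had 21.9, 25.5 and 28.01 RPKM in the libraries labelled ataxin-7 and 17.98, 19.1 and 19.8 RPKM in OregonR. All libraries labelled ataxin-7 were above all OregonR libraries. The log2 fold change was 0.38 (SE 0.13, adjusted p = 0.0582), and an exact two-sided permutation test over the 6 libraries gave p = 0.1, the smallest that 3 against 3 allows. Without replicate 1 the log2 fold change was 0.48 (adjusted p = 0.00811). RNA level says nothing about the protein, and the genotype could not be checked in this way.

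The libraries labelled ataxin-7 had lower levels of most zygotic patterning genes that could be tested. The exact age of the embryos within the stage is not given, so genotype and age cannot be told apart here. The part of age in these differences was not tested. Of 108 genes in the lists of segmentation, dorsal-ventral, X-counting, Bearded, cellularization and Toll receptor genes, 75 could be tested, 57 were called lower and none was called higher. Their median log2 fold change was -1.76, against 0.05 over all tested genes. Without replicate 1 the count was 64 lower and 3 higher, with a median of -1.25, against -0.03 over all tested genes. Replicate 1 was the lowest of the 6 libraries for 72 of the 75 genes, and replicates 2 and 3 both lay below every OregonR library for 66. Of the tested members, 5 passed the filter on low values through OregonR alone, since all their ataxin-7 values were under 1 RPKM. The calls, unlike the direction, depended on which single library of either genotype was left out. Of the 57 genes called lower, 52 were tested in every fit that left out 1 library and had a negative log2 fold change in each. That of odd-skipped (odd) lay between -3.12 and -1.99, and that of giant (gt) between -2.78 and -1.56. None of the 57 was called in every fit that left out 1 library, and of 70 members tested without OregonR replicate 1 or without OregonR replicate 2, 1 and 0 were called lower. The count was 32 of 70 without OregonR replicate 3 and 22 of 75 without ataxin-7 replicate 2.

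**Figure D1:**
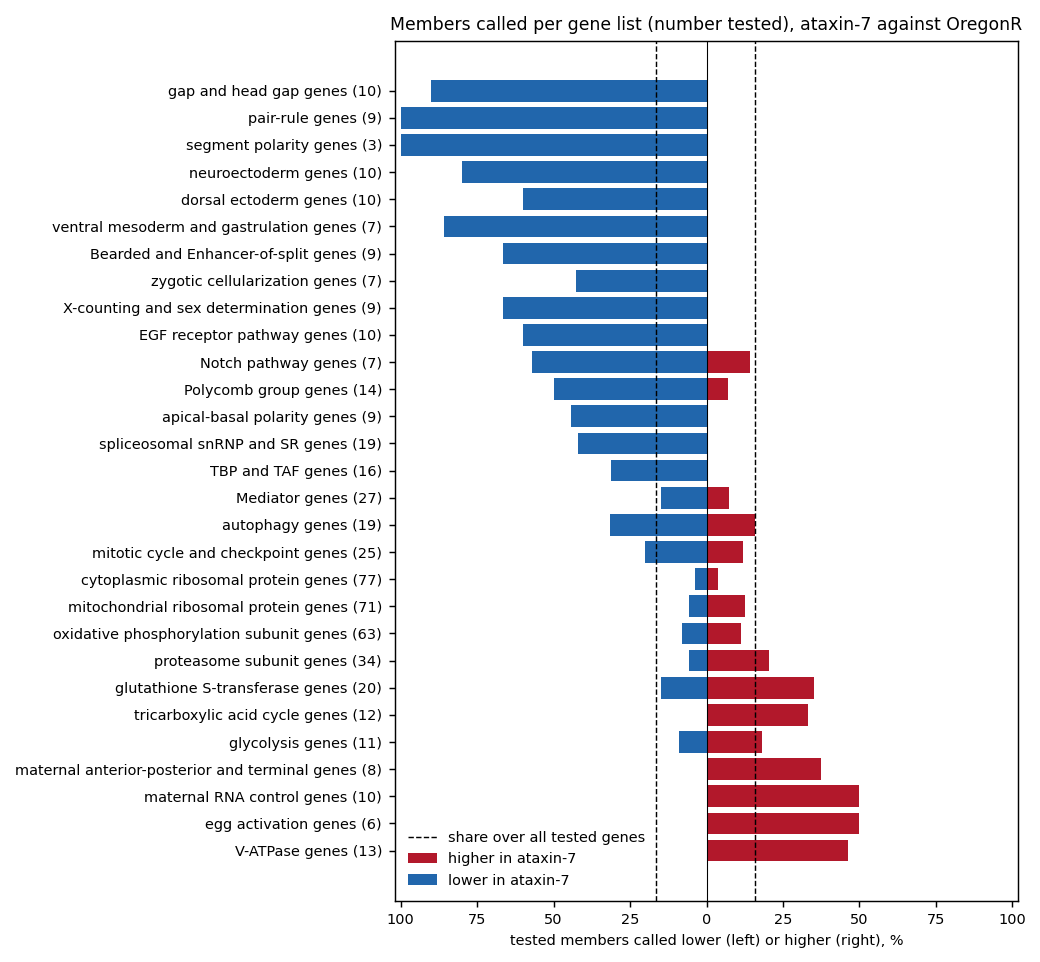
Share of tested members of each gene list that were called lower (bars to the left) or higher (bars to the right) in ataxin-7 embryos, in percent, with the number tested in brackets and dashed lines at the shares over all tested genes (16.4% lower, 16% higher). Segmentation and dorsal-ventral lists extended to the left, with all 9 pair-rule genes called lower, and egg activation, maternal RNA control and V-ATPase lists extended to the right.

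Gap genes come first in the segmentation cascade and encode transcription factors that divide the embryo into broad domains. Of 10 gap and head gap genes, 9 were called lower and none higher (median -1.97), with 9 lower also without replicate 1 (median -1.36). Giant (gt), a repressor expressed in an anterior and a posterior domain, had 8.85, 35.6 and 52.4 RPKM in ataxin-7 replicates 1, 2 and 3 and 125, 141 and 123 RPKM in OregonR (log2 fold change -2.28, SE 0.59, adjusted p = 0.0285). Knirps (kni), the abdominal gap gene, stood at 4.70, 13.9 and 24.2 RPKM in ataxin-7 embryos, against 59.8, 67.6 and 59.1 RPKM in OregonR embryos (-2.29, SE 0.50, adjusted p = 0.0192). The groups did not overlap for either gene, as the choice of named genes required, and replicate 1 was several-fold below the other mutant libraries. The head gap gene empty spiracles (ems) measured 1.33, 3.84 and 5.64 RPKM in ataxin-7 libraries and 19.5, 19.8 and 15.2 RPKM in OregonR libraries (-2.17, SE 0.39, adjusted p = 0.0130). Hunchback (hb), which is supplied by the mother as well as by the embryo, was the gap gene that was not called. The hb values were 32.2, 41.01 and 58.5 RPKM in ataxin-7 and 57.3, 66.9 and 65.2 RPKM in OregonR (-0.55, SE 0.21, adjusted p = 0.0873). Without OregonR replicate 1 or without OregonR replicate 2, no gap gene was called.

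Pair-rule genes read the gap gene domains and are expressed in stripes. All 9 were called lower (median -2.22), and all 9 again without replicate 1 (median -1.59). Odd skipped (odd) had 3.63, 15.9 and 20.95 RPKM in ataxin-7 and 79.5, 84.6 and 64.4 RPKM in OregonR, the largest difference in the list (-2.68, SE 0.56, adjusted p = 0.0173). Hairy (listed as hry), a repressor of other pair-rule genes, stood at 2.69, 11.99 and 16.1 RPKM in ataxin-7 embryos and at 59.1, 59.5 and 43.9 RPKM in OregonR embryos (-2.55, SE 0.55, adjusted p = 0.0188). Paired (prd) had 3.98, 12.5 and 14.97 RPKM in ataxin-7 against 62.4, 68.3 and 37.2 RPKM in OregonR (-2.43, SE 0.47, adjusted p = 0.0148). OregonR replicate 3 was the lowest OregonR library for all 3 genes and still lay above every mutant library. As for the gap genes, no pair-rule gene was called without OregonR replicate 1 or without OregonR replicate 2.

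Segment polarity and homeotic genes act after the pair-rule genes, and most did not pass the filter. Of 9 segment polarity genes measured, 3 were tested, and all 3 were called lower with and without replicate 1. Cubitus interruptus (ci), the transcription factor of Hedgehog signalling, had 4.95, 11.1 and 13.4 RPKM in ataxin-7 and 69.9, 66.2 and 33.1 RPKM in OregonR (-2.43, SE 0.42, adjusted p = 0.0118). Patched (ptc), the Hedgehog receptor, had 1.88, 5.91 and 6.98 RPKM in ataxin-7 against 30.6, 31.1 and 20.1 RPKM in OregonR (-2.36, SE 0.41, adjusted p = 0.0123). For both genes OregonR replicate 3 lay well below the other OregonR libraries. None of 8 homeotic genes passed the filter, and their summed level was 0.371 to 0.919 RPKM in ataxin-7 libraries and 1.43 to 3.51 RPKM in OregonR libraries. None of the 3 segment polarity calls remained without OregonR replicate 1 or without OregonR replicate 2.

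The dorsal-ventral axis showed the same direction in all 3 of its territories. Of the ventral mesoderm and gastrulation genes 7 of 11 were tested and 6 called lower, of the neuroectoderm genes 10 of 13 were tested and 8 called lower, and of the dorsal ectoderm genes 10 of 15 were tested and 6 called lower. None was called higher, and the medians were -1.51, -1.96 and -1.57. Without replicate 1 the counts were 6 lower and 1 higher, 9 lower, and 8 lower, with medians of -1.24, -1.47 and -1.13. Twist (twi), the activator of mesoderm fate, had 10.2, 33.1 and 46.5 RPKM in ataxin-7 and 111, 127 and 92.5 RPKM in OregonR (-2.07, SE 0.51, adjusted p = 0.0261). Snail (sna), the mesodermal repressor, had 13.7, 33.9 and 58.6 RPKM in ataxin-7 against 133, 160 and 104 RPKM in OregonR (-2.07, SE 0.49, adjusted p = 0.0231). In the neuroectoderm, brinker (brk), a repressor of Dpp targets, stood at 2.89, 8.32 and 14.6 RPKM in ataxin-7 embryos and 40.5, 44.9 and 30.4 RPKM in OregonR embryos (-2.24, SE 0.49, adjusted p = 0.0189). The 2 groups were apart for all 3 genes, as the choice of named genes required, and replicate 1 was lowest each time. The dorsal gene Ance, which encodes an angiotensin-converting enzyme homologue, measured 1.81, 4.85 and 6.10 RPKM in ataxin-7 libraries and 26.7, 23.4 and 14.7 RPKM in OregonR libraries (-2.17, SE 0.40, adjusted p = 0.0134). Screw (scw), a BMP ligand expressed early and then lost, was not called. The scw values were 18.7, 72.2 and 84.6 RPKM in ataxin-7 and 67.96, 81.4 and 115.3 RPKM in OregonR (-0.81, SE 0.56, adjusted p = 0.3001), so that replicates 2 and 3 were within the OregonR range and replicate 1 alone was below it. Leaving out OregonR replicate 1 or OregonR replicate 2 left no dorsal-ventral gene of the 3 lists called.

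Among the genes that count X chromosomes or read that count, sisA and Sxl gave different values. Sisterless A (sisA), an X-linked counter switched on before the blastoderm forms, had 28.6, 74.9 and 82.8 RPKM in ataxin-7 and 69.3, 66.4 and 60.3 RPKM in OregonR (-0.21, SE 0.38, adjusted p = 0.702). Here replicates 2 and 3 were above all OregonR libraries and replicate 1 was below them, and without replicate 1 sisA was called higher (0.27, adjusted p = 0.0492). Sex-lethal (Sxl), the switch gene that responds to the count, was called lower with 5.85, 14.1 and 16.5 RPKM in ataxin-7 against 41.5, 39.6 and 32.8 RPKM in OregonR (-1.67, SE 0.35, adjusted p = 0.0179). Among the 9 tested genes 6 were called lower and none higher, and without OregonR replicate 1 or without OregonR replicate 2 none was called. The difference between sisA and Sxl was not tested.

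Several zygotic genes that build the first cells were also lower. All 7 were tested and 3 were called lower (median -1.49), and without replicate 1 the count was 6 lower and 1 higher (median -1.03). The frühstart gene (listed as Z600), which holds nuclei in interphase at the blastoderm, had 76.9, 255 and 533 RPKM in ataxin-7 and 1208, 1336 and 1138 RPKM in OregonR (-2.48, SE 0.64, adjusted p = 0.0293). Tribbles (trbl), an inhibitor of mitosis, stood at 11.98, 22.02 and 40.7 RPKM in ataxin-7 embryos and 86.4, 92.2 and 74.5 RPKM in OregonR embryos (-1.88, SE 0.39, adjusted p = 0.0176). Slow as molasses (slam), which is needed for the cleavage furrows, had 145, 289 and 483 RPKM in ataxin-7 against 742, 751 and 809 RPKM in OregonR (-1.49, SE 0.40, adjusted p = 0.0330). No mutant library reached the OregonR range for these 3 genes, as the choice of named genes required. The nullo gene, whose RNA is made early for the furrows and removed quickly, was the exception with 32.8, 112 and 125 RPKM in ataxin-7 and 43.98, 65.3 and 93.3 RPKM in OregonR (0.26, SE 0.54, adjusted p = 0.739). Its replicates 2 and 3 were above every OregonR library, and it was called higher without replicate 1 (0.87, adjusted p = 0.0247). Without OregonR replicate 1, OregonR replicate 2 or ataxin-7 replicate 2, no gene of this list was called.

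Lower levels extended to targets and components of signalling pathways. In the Bearded and Enhancer-of-split complexes, whose products hold Notch signalling in check or carry out its response, 9 of 15 genes were tested and 6 called lower (median -1.76). Tom, a Bearded family gene, had 31.9, 93.4 and 89.7 RPKM in ataxin-7 and 369, 343 and 200 RPKM in OregonR (-2.17, SE 0.45, adjusted p = 0.0173). Of 10 tested EGF receptor pathway genes 6 were called lower and none higher. The ligand gene spitz (spi) had 3.18, 4.10 and 4.08 RPKM in ataxin-7 against 17.2, 18.5 and 10.3 RPKM in OregonR (-1.74, SE 0.26, adjusted p = 0.00819). The receptor gene Egfr stood at 0.909, 2.08 and 3.05 RPKM in ataxin-7 embryos and 7.18, 7.38 and 6.13 RPKM in OregonR embryos (-1.45, SE 0.30, adjusted p = 0.0174). For spitz, unlike the patterning transcription factors, replicate 1 was close to replicates 2 and 3. The Notch pathway list was mixed, with 4 of 7 tested genes called lower, among them the ubiquitin ligase genes neur and mib1, and the repressor Hairless (H) called higher with 56.6, 57.1 and 59.3 RPKM in ataxin-7 and 29.4, 39.4 and 45.01 RPKM in OregonR (0.61, SE 0.15, adjusted p = 0.0277). Wnt, Hippo and JAK-STAT lists had 3 of 11, 3 of 8 and 2 of 5 tested genes called, against 32.4% over all genes. No member of these 6 lists was called without OregonR replicate 1 or without OregonR replicate 2.

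**Figure D2:**
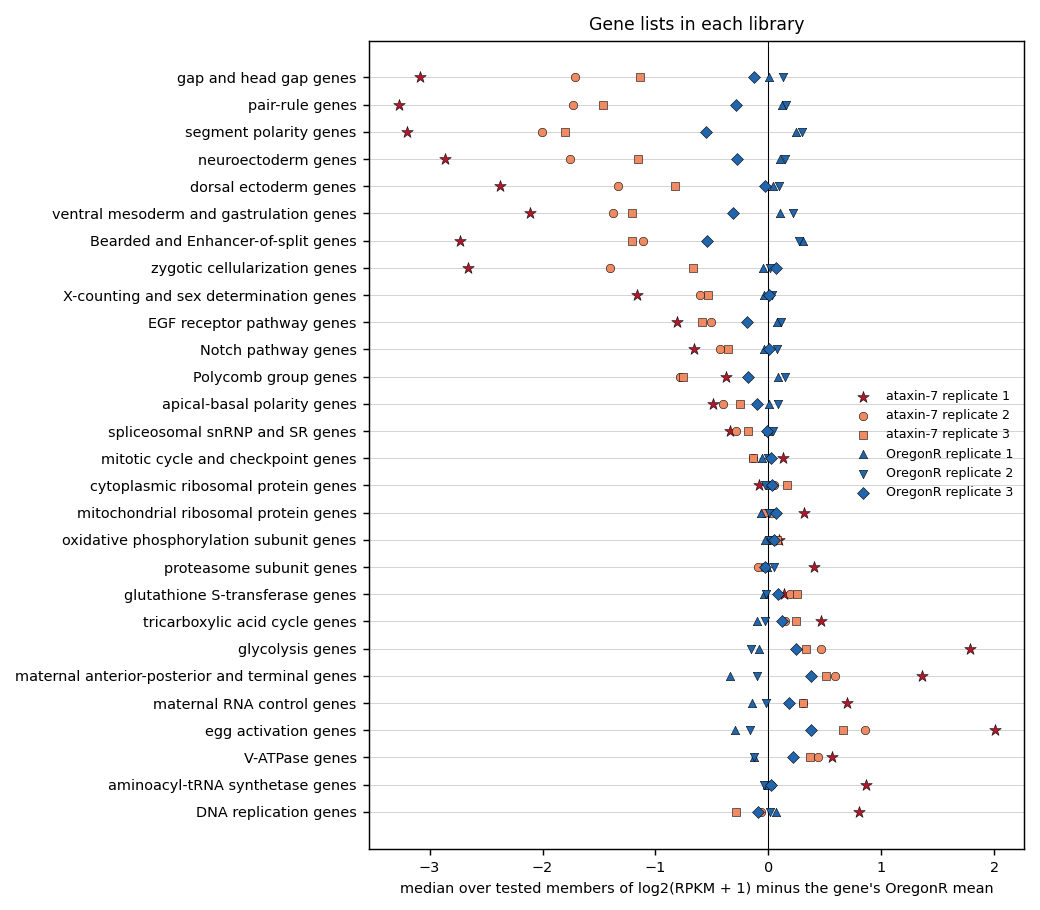
Median over the tested members of each gene list of log2(RPKM + 1) minus the gene's OregonR mean, for each of the 3 ataxin-7 libraries (star, replicate 1; circle, replicate 2; square, replicate 3) and the 3 OregonR libraries (blue). For gap genes the ataxin-7 libraries lay at -3.09, -1.72 and -1.13, and for aminoacyl-tRNA synthetase genes at 0.86, 0.02 and -0.01, so that the distance of replicate 1 from replicates 2 and 3 differed from list to list.

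Some maternal transcripts were at higher levels, and most were not called. As for the zygotic genes, the part of embryo age in these differences was not tested. Over all maternal lists, 69 of 77 genes were tested, and 16 were called higher and 7 lower. The share called was 33.3%, close to the 32.4% over all tested genes. By direction it was 23.2% higher and 10.1% lower, against 16% and 16.4% over all tested genes. Without replicate 1 the counts were 18 and 11 of 67, in a fit that called 51.4% of all tested genes. They were 3 and 1 of 68 without OregonR replicate 1, 1 and 0 of 68 without OregonR replicate 2, and 4 and 1 of 68 without ataxin-7 replicate 2. Of 8 tested genes of the maternal anterior-posterior and terminal systems, 3 were called higher and none lower (median 1.18, and 0.56 without replicate 1). Bicoid (bcd), the anterior determinant, had 42.6, 40.99 and 37.5 RPKM in ataxin-7 and 8.27, 10.9 and 18.9 RPKM in OregonR (1.67, SE 0.28, adjusted p = 0.0107). Swallow (swa), required to anchor bicoid RNA, had 121, 41.5 and 33.99 RPKM in ataxin-7 against 7.56, 9.80 and 22.2 RPKM in OregonR (2.13, SE 0.56, adjusted p = 0.0310). For bicoid the 3 mutant libraries were alike, while for swallow replicate 1 was far above the others. OregonR replicate 3 was the highest OregonR library for both. Bicoid was called in every fit that left out 1 library except the fit without OregonR replicate 2.

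Regulators of maternal RNA and of egg activation were among the maternal genes called higher. Of 10 tested maternal RNA control genes 5 were called higher and none lower (median 0.35, with 4 of 9 higher, 1 lower and a median of 0.16 without replicate 1), and of 6 tested egg activation genes 3 were called higher and none lower (median 1.02, and 0.78 without replicate 1). With 1 library left out, between 0 and 4 egg activation genes were called. Smaug (smg), the RNA-binding protein that triggers destruction of many maternal transcripts, had 288, 235 and 219 RPKM in ataxin-7 and 57.5, 73.2 and 128 RPKM in OregonR (1.58, SE 0.29, adjusted p = 0.0129). Trailer hitch (tral), a component of RNP granules, stood at 347, 225 and 206 RPKM in ataxin-7 embryos and 70.2, 86.9 and 95.8 RPKM in OregonR embryos (1.58, SE 0.22, adjusted p = 0.00664). Every mutant library exceeded every OregonR library for both genes, as the choice of named genes required. Trailer hitch was the only gene of the maternal lists that was called in every fit that left out 1 library, and smaug was not called without OregonR replicate 1 or without OregonR replicate 2. The calcineurin genes Pp2B-14D and CanB2, which act in egg activation, were also higher. Pp2B-14D had 23.1, 12.1 and 9.48 RPKM in ataxin-7 against 0.861, 1.00 and 2.45 RPKM in OregonR (2.67, SE 0.39, adjusted p = 0.00806). CanB2 had 43.7, 27.9 and 24.3 RPKM in ataxin-7 against 9.98, 11.3 and 15.8 RPKM in OregonR (1.28, SE 0.26, adjusted p = 0.0169).

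The other maternal groups were mixed. Of 13 tested piRNA pathway genes 1 was called, Hen1, the methyltransferase of small RNAs, which was lower with 2.95, 2.58 and 2.98 RPKM in ataxin-7 and 8.87, 7.90 and 8.55 RPKM in OregonR (-1.30, SE 0.17, adjusted p = 0.00594) and was not called without OregonR replicate 2. Of 7 germ plasm genes 1 was called higher and 2 lower, and the higher one, germ cell-less (gcl), had 64.1, 30.6 and 22.8 RPKM in ataxin-7 and 8.30, 10.02 and 18.7 RPKM in OregonR (1.53, SE 0.44, adjusted p = 0.0392). The Toll to Dorsal pathway, which is loaded into the egg and sets the dorsal-ventral axis, had 4 of 9 tested genes called higher and 1 called lower. The 4 included the adaptor genes Myd88 and tube (tub), and the lower one was cactus (cact), the inhibitor of Dorsal, at 44.2, 51.7 and 59.3 RPKM in ataxin-7 and 64.7, 71.95 and 68.97 RPKM in OregonR (-0.41, SE 0.12, adjusted p = 0.0420). Neither the germ plasm list nor the Toll to Dorsal list held a call without OregonR replicate 1 or without OregonR replicate 2.

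A large set of genes was higher in ataxin-7 replicate 1 than in replicates 2 and 3, and for part of it replicates 2 and 3 were near OregonR. In all, 1331 tested genes were at least 2-fold higher in replicate 1 than the mean of replicates 2 and 3 on the log2(RPKM + 1) scale, and 245 were at least 2-fold lower. For 584 of the 1331, replicates 2 and 3 averaged within 0.5 log2 units of the OregonR mean. None of the 584 was called with all libraries, and 74 were called without replicate 1. Deadhead (dhd), an oocyte thioredoxin gene, had 1000, 34.8 and 46.1 RPKM in ataxin-7 replicates 1, 2 and 3 and 12.9, 11.4 and 19.98 RPKM in OregonR. Exuperantia (exu), needed for localization of bicoid RNA, had 48.01, 1.36 and 1.51 RPKM in ataxin-7 and 0.789, 0.778 and 1.49 RPKM in OregonR. Oskar (osk), the organizer of germ plasm, had 93.5, 4.14 and 3.55 RPKM in ataxin-7 and 1.34, 1.78 and 4.11 RPKM in OregonR. In each case replicate 1 was at least an order of magnitude above the 5 other libraries. The maternal alpha-tubulin gene alphaTub67C followed, with 83.4, 3.84 and 3.53 RPKM in ataxin-7 and 1.98, 1.71 and 3.49 RPKM in OregonR. The yolk receptor gene yolkless (yl), a gene of the ovary, had 94.1, 3.27 and 3.16 RPKM in ataxin-7 against 0.414, 0.419 and 1.16 RPKM in OregonR. These genes were not called with all 6 libraries, and deadhead and yolkless were called higher without replicate 1 (1.42, adjusted p = 0.00207, and 1.37, adjusted p = 0.00176).

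**Figure D3:**
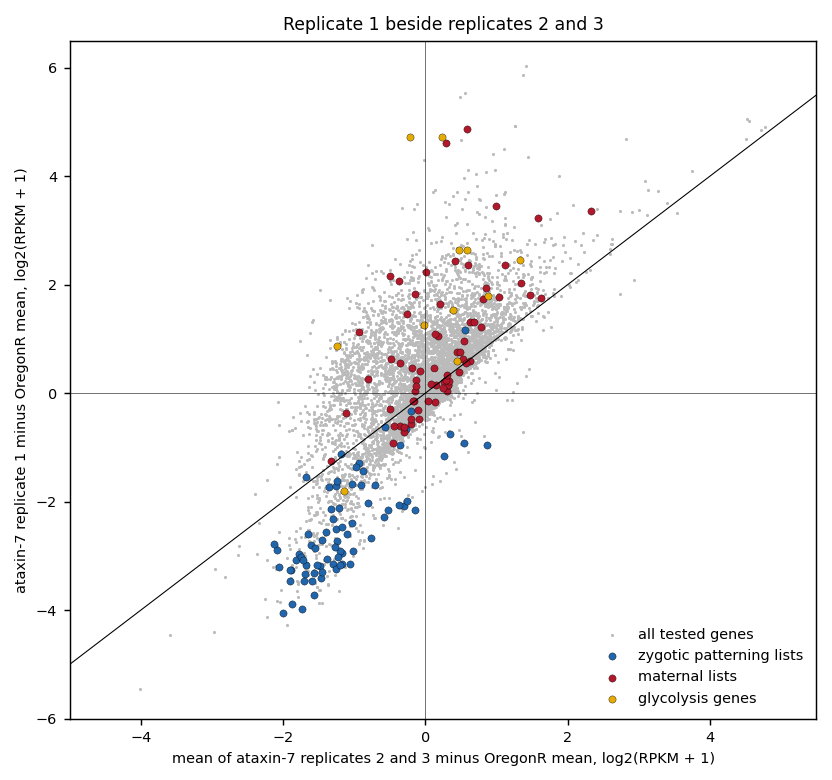
Difference from the OregonR mean on the log2(RPKM + 1) scale in ataxin-7 replicate 1 (vertical axis) against the mean of ataxin-7 replicates 2 and 3 (horizontal axis) for all 7049 tested genes (grey), with zygotic patterning lists in blue, maternal lists in red, glycolysis genes in yellow and the line of equality. Most blue points lay below the line in the lower left quadrant, and many red and yellow points lay above it near the zero of the horizontal axis.

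Markers of other tissues are given beside this pattern. Of 22 follicle cell and yolk genes only yolkless passed the filter and 5 were at 0 in all 6 libraries. The summed level was 3.96 to 95.1 RPKM in ataxin-7 libraries and 1.44 to 2.13 RPKM in OregonR libraries, and yolkless made up nearly all of it in ataxin-7 replicate 1. The chorion genes Cp16, Cp19 and Cp38 and the vitelline membrane genes Vm26Ac and Vm32E were the 5 at 0, and the yolk protein gene Yp1 had 0.234 to 0.410 RPKM in ataxin-7 and 0.0352 to 0.0855 RPKM in OregonR. Muscle genes summed to 4.40 to 5.55 RPKM in ataxin-7 and 4.70 to 5.92 RPKM in OregonR, nearly all from Act57B, with the defining gene Mhc close to 0. Neuron genes summed to 35.5 to 37.98 RPKM in ataxin-7 and 32.8 to 42.2 RPKM in OregonR, mainly from Syx1A, a syntaxin gene that is not limited to neurons, while the defining gene elav had 0.377 to 1.22 RPKM in ataxin-7 and 3.40 to 6.05 RPKM in OregonR. Haemocyte and fat body genes summed to 9.75 to 29.9 RPKM in ataxin-7 and 8.30 to 9.63 RPKM in OregonR, mainly from crq and srp. The scavenger receptor gene crq had 28.6, 8.52 and 6.47 RPKM in ataxin-7 and 2.246, 2.207 and 4.349 RPKM in OregonR, and the defining gene Hml was near 0 in all libraries. Among cuticle protein genes 21 of 85 were at 0 in all libraries, and their sum was 7.17 to 19.3 RPKM in ataxin-7 and 9.31 to 10.7 RPKM in OregonR. The part of these markers in the results was not tested.

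Metabolic genes divided between those that differed in replicate 1 only and those that differed in all mutant libraries. Of 11 tested glycolysis genes 2 were called higher and 1 lower, although the median was 1.18, and without replicate 1 the median was 0.42 with 3 of 10 higher and 2 lower. Replicate 1 was the highest of the 6 libraries for 10 of the 11. The glyceraldehyde-3-phosphate dehydrogenase gene Gapdh2 had 175, 4.24 and 5.35 RPKM in ataxin-7 and 5.38, 4.88 and 6.90 RPKM in OregonR (1.43, SE 1.30, adjusted p = 0.425), and without replicate 1 its log2 fold change was -0.21 (adjusted p = 0.344). The triose phosphate isomerase gene Tpi had 50.5, 0.958 and 1.66 RPKM in ataxin-7 and 0.828, 0.678 and 1.37 RPKM in OregonR (1.74, SE 1.20, adjusted p = 0.299). Replicate 1 alone carried both differences. The phosphoglycerate mutase gene Pglym78 was higher in all 3 mutant libraries, with 113, 54.8 and 47.4 RPKM in ataxin-7 and 15.9, 17.6 and 26.9 RPKM in OregonR (1.71, SE 0.35, adjusted p = 0.0171). The gluconeogenic fructose-1,6-bisphosphatase gene fbp had 15.3, 13.03 and 11.9 RPKM in ataxin-7 against 3.20, 3.57 and 3.84 RPKM in OregonR (1.66, SE 0.18, adjusted p = 0.00337). No glycolysis gene was called without OregonR replicate 1 or without OregonR replicate 2, whereas fbp was called in every fit that left out 1 library.

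Of 12 tricarboxylic acid cycle genes 4 were called higher and none lower (5 and 0 without replicate 1). The succinyl-CoA synthetase gene ScsbetaA had 74.4, 63.7 and 62.7 RPKM in ataxin-7 and 31.5, 33.2 and 37.5 RPKM in OregonR (0.95, SE 0.11, adjusted p = 0.00400). The proton pump V-ATPase, which acidifies organelles, had 6 of 13 tested subunit genes called higher and none lower (median 0.45), and 7 of them without replicate 1 (median 0.49). Vha55, a subunit of the ATP-hydrolysing domain, stood at 76.6, 38.6 and 29.5 RPKM in ataxin-7 embryos and 7.04, 7.57 and 17.3 RPKM in OregonR embryos (2.07, SE 0.44, adjusted p = 0.0184). The membrane subunit gene VhaPPA1-1 had 78.01, 61.9 and 56.5 RPKM in ataxin-7 and 29.7, 28.2 and 38.9 RPKM in OregonR (1.00, SE 0.17, adjusted p = 0.0111). Both genes were higher in all mutant libraries. Without OregonR replicate 1 or without OregonR replicate 2, no V-ATPase gene was called, and 1 tricarboxylic acid cycle gene was called.

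The respiratory chain showed no common direction, with 7 of 63 tested oxidative phosphorylation genes called higher and 5 lower, less than the share over all genes. ND-13B, which encodes a subunit of complex I, had the largest change in the list, with 18.2, 10.2 and 10.3 RPKM in ataxin-7 and 44.97, 47.4 and 47.7 RPKM in OregonR (-1.83, SE 0.22, adjusted p = 0.00459). It was called in every fit that left out 1 library. Of 25 tested genes of the mitochondrial genome none was called in the limma fit, 1 had an unadjusted p under 0.05, and limma-voom called 2 lower. Without replicate 1 there were 2 higher and 4 lower.

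Genes of detoxification held several differences that were even across libraries. Of 20 tested glutathione S-transferase genes, which conjugate glutathione to reactive compounds, 7 were called higher and 3 lower (8 and 3 without replicate 1). GstE11 had 37.4, 31.9 and 32.5 RPKM in ataxin-7 and 4.28, 3.52 and 5.46 RPKM in OregonR (2.70, SE 0.18, adjusted p = 0.000935). GstT1 had 59.95, 63.4 and 62.05 RPKM in ataxin-7 and 23.02, 27.9 and 29.1 RPKM in OregonR (1.19, SE 0.11, adjusted p = 0.00208). The spread among mutant libraries was small for both, and both were called in every fit that left out 1 library. GstD1 showed the opposite kind of pattern, with 97.3, 2.09 and 2.20 RPKM in ataxin-7 and 0.909, 1.01 and 1.93 RPKM in OregonR (2.14, SE 1.32, adjusted p = 0.250). Cytochrome P450 genes gave 4 of 11 tested members higher and 1 lower. Cyp12c1 was near 0 in OregonR and passed the filter on low values through ataxin-7 alone, with 9.16, 10.3 and 11.3 RPKM in ataxin-7 and 0.0214, 0 and 0.00748 RPKM in OregonR (3.47, SE 0.17, adjusted p = 0.000342), and this fold change depends on the added 1 because the OregonR values are below what 3 reads in a gene of 1 kilobase give, 0.0341 to 0.0402 RPKM. Cyp310a1 was the lower one, at 3.66, 13.8 and 13.6 RPKM in ataxin-7 and 62.3, 52.2 and 38.9 RPKM in OregonR (-2.35, SE 0.47, adjusted p = 0.0158).

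Heat shock genes were likewise divided. Hsp23, a small chaperone, had 123, 137 and 135 RPKM in ataxin-7 and 55.1, 53.02 and 49.1 RPKM in OregonR (1.32, SE 0.08, adjusted p = 0.000788), and was called in every fit that left out 1 library. Hsp26, another small chaperone with maternal RNA, had 386, 27.7 and 33.5 RPKM in ataxin-7 and 23.3, 27.6 and 32.8 RPKM in OregonR (1.34, SE 0.96, adjusted p = 0.314). Of the 6 tested small heat shock genes 2 were called higher and 2 lower. None of 10 tested large heat shock genes was called in the limma fit, none had an unadjusted p under 0.05 and limma-voom called none, and without replicate 1 there were 2 calls, both lower.

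**Figure D4:**
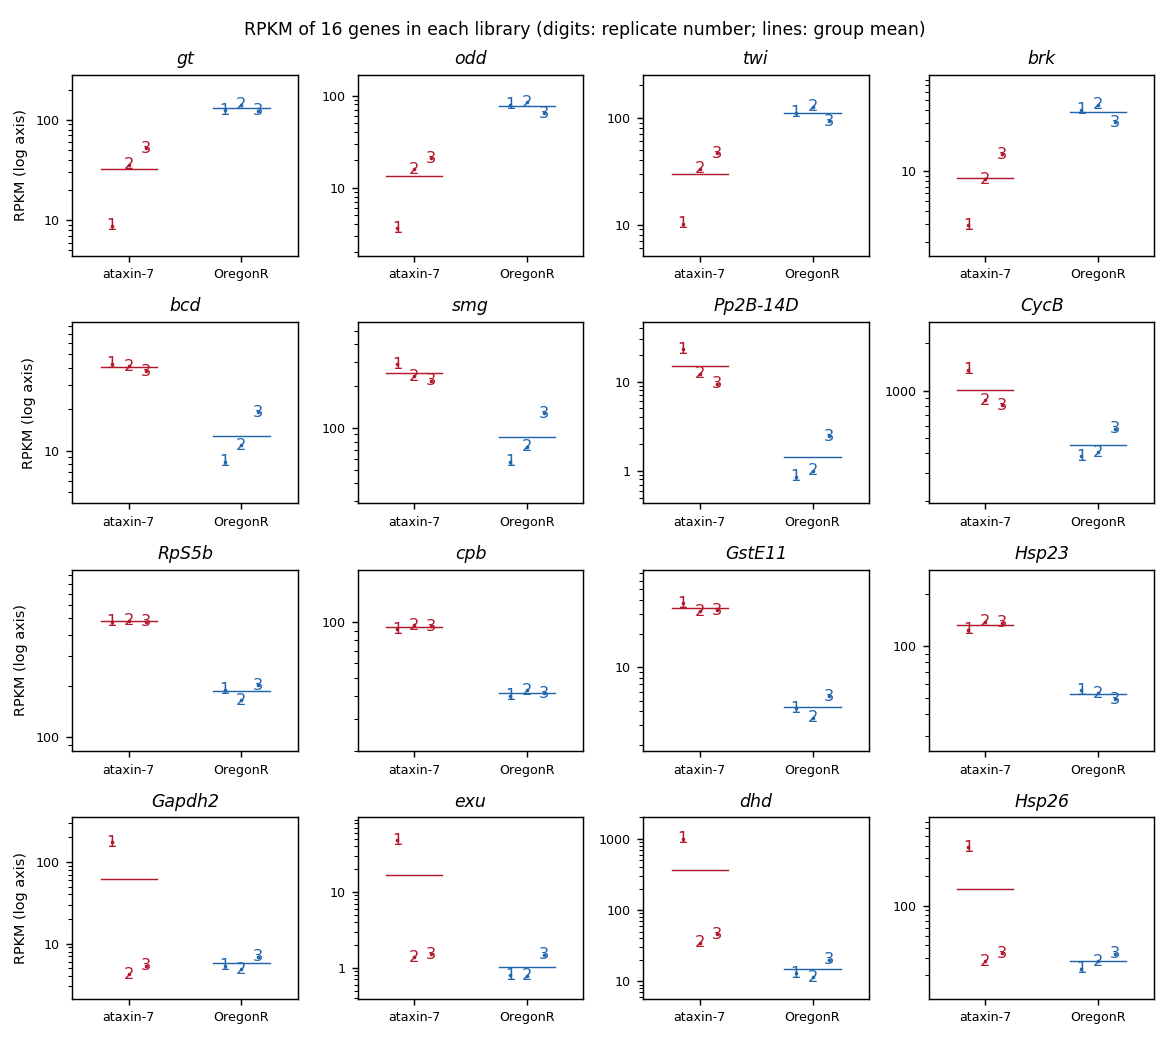
RPKM on a log axis of 16 genes in the 3 ataxin-7 libraries (red, left) and the 3 OregonR libraries (blue, right), each digit being a replicate number and each line the mean of its group. In the top row replicate 1 was the lowest of 3 low mutant libraries (gt 8.85, 35.6 and 52.4 RPKM), in the row of RpS5b, cpb, GstE11 and Hsp23 the 3 mutant libraries coincided, and in the bottom row replicate 1 alone was high (Gapdh2 175, 4.24 and 5.35 RPKM).

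Genes for protein synthesis were mostly not called. Only 3 of 77 tested cytoplasmic ribosomal protein genes were called higher and 3 lower (median 0.04), and without replicate 1 the counts were 12 and 4. The exception in size was RpS5b, the germline-enriched copy of ribosomal protein S5, which lies on 3R from 14900432 to 14901563 in the BDGP6 annotation. RpS5b had 479, 483 and 479 RPKM in ataxin-7 and 189, 165 and 202 RPKM in OregonR (1.37, SE 0.09, adjusted p = 0.000894). Its paralogue RpS5a had 97.9, 130 and 131 RPKM in ataxin-7 and 122, 110 and 121 RPKM in OregonR (0.01, SE 0.13, adjusted p = 0.942). The mutant libraries were nearly equal for RpS5b, and it was called in every fit that left out 1 library. Mitochondrial ribosomal protein genes gave 9 of 71 higher and 4 lower, but 8 higher and 19 lower without replicate 1, which was the highest of the 6 libraries for 41 of them. The aminoacyl-tRNA synthetase genes, which charge tRNAs, gave 5 of 28 higher and none lower, with replicate 1 highest for 24 and a median shift of 0.86 in replicate 1, 0.02 in replicate 2 and -0.01 in replicate 3. Without replicate 1 the synthetase counts were 6 higher and 6 lower. Proteasome subunit genes gave 7 of 34 higher and 2 lower, and 7 and 6 without replicate 1. Prosalpha6, at the low end of these changes, had 312, 328 and 361 RPKM in ataxin-7 and 404, 436 and 385 RPKM in OregonR (-0.29, SE 0.09, adjusted p = 0.0427), and its direction turned under quantile normalization (0.075).

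Cell cycle genes included differences of opposite sign among the cyclins. Of 25 tested mitotic cycle and checkpoint genes 3 were called higher and 5 lower, a share no greater than the 32.4% over all tested genes. Cyclin B (CycB) had 1366, 869 and 810 RPKM in ataxin-7 and 384, 408 and 573 RPKM in OregonR (1.14, SE 0.24, adjusted p = 0.0179), whereas Cyclin B3 (CycB3) had 232, 312 and 364 RPKM in ataxin-7 and 497, 528 and 517 RPKM in OregonR (-0.79, SE 0.16, adjusted p = 0.0167). Cyclin D (CycD), a driver of growth and of entry into S phase, had 108, 89.3 and 87.5 RPKM in ataxin-7 and 32.3, 39.3 and 53.8 RPKM in OregonR (1.19, SE 0.19, adjusted p = 0.0101). Groups were apart for each of the 3 cyclins, as the choice of named genes required. For Cyclin E (CycE) the values were 17.5, 12.97 and 15.5 RPKM in ataxin-7 and 27.7, 28.7 and 23.9 RPKM in OregonR (-0.77, SE 0.15, adjusted p = 0.0146). Among 16 DNA replication genes 2 were higher and 1 lower, and replicate 1 was highest for 11. Without OregonR replicate 1, 1 gene of the cell cycle list was called, and without OregonR replicate 2 none.

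Of 14 Polycomb group genes, which maintain repression of developmental genes, 7 were called lower and 1 higher (median -0.47), and 8 lower and 1 higher without replicate 1 (median -0.77). Polyhomeotic proximal (ph-p), a subunit of the complex PRC1, had 1.98, 2.50 and 3.46 RPKM in ataxin-7 and 11.6, 11.8 and 8.04 RPKM in OregonR (-1.66, SE 0.25, adjusted p = 0.00819). Su(z)12, a subunit of the histone H3 methyltransferase complex PRC2, had 10.6, 9.15 and 8.59 RPKM in ataxin-7 and 25.7, 26.4 and 17.2 RPKM in OregonR (-1.19, SE 0.20, adjusted p = 0.0112). The called gene in the other direction was Jarid2, a partner of PRC2, with 59.4, 56.1 and 50.8 RPKM in ataxin-7 and 31.9, 37.3 and 43.4 RPKM in OregonR (0.56, SE 0.13, adjusted p = 0.0226). Of 10 Trithorax and Brahma genes 3 were called lower and none higher. The Brahma complex gene Bap55 had 61.5, 59.5 and 63.1 RPKM in ataxin-7 and 107, 107 and 94.1 RPKM in OregonR (-0.73, SE 0.08, adjusted p = 0.00337), and it was called in every fit that left out 1 library. No Polycomb group gene was called without OregonR replicate 1 or without OregonR replicate 2.

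Histone genes differed by kind. Of 111 replication-coupled histone genes, all tested, none was called in the limma fit, 20 had an unadjusted p under 0.05 and limma-voom called none. Without replicate 1, 11 were called higher. These genes are near-identical copies, so the level of a single copy is uncertain. Of 6 histone variant genes 3 were called lower and 1 higher. The linker histone gene BigH1, whose protein marks the early embryo, had 208, 99.1 and 80.7 RPKM in ataxin-7 and 30.04, 34.9 and 57.5 RPKM in OregonR (1.57, SE 0.39, adjusted p = 0.0273). His3.3A had 135, 174 and 190 RPKM in ataxin-7 and 286, 323 and 257 RPKM in OregonR (-0.80, SE 0.15, adjusted p = 0.0134). The stem-loop binding protein gene Slbp, whose product processes histone RNA, had 42.9, 33.5 and 37.6 RPKM in ataxin-7 and 142, 144 and 92.6 RPKM in OregonR (-1.69, SE 0.19, adjusted p = 0.00404). Caf1-105, a subunit of the assembly factor that loads histones H3 and H4 on new DNA, had 35.6, 35.1 and 37.6 RPKM in ataxin-7 and 121, 123 and 91.7 RPKM in OregonR (-1.59, SE 0.13, adjusted p = 0.00141). The mutant libraries were close to each other for Slbp and Caf1-105, both of which were called in every fit that left out 1 library. No histone variant gene was called without OregonR replicate 1 or without OregonR replicate 2.

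Of the general transcription and splicing machinery, 5 of 16 TBP and TAF genes and 8 of 19 spliceosomal snRNP and SR protein genes were called lower and none higher (medians -0.15 and -0.25). Without replicate 1 the counts were 6 and 10 lower. The SR protein gene B52 had 90.98, 121 and 134 RPKM in ataxin-7 and 188, 185 and 169 RPKM in OregonR (-0.66, SE 0.15, adjusted p = 0.0195). Mediator gave 2 of 27 higher and 4 lower, and 3 and 11 without replicate 1. None of the TAF and splicing genes was called without OregonR replicate 1 or without OregonR replicate 2.

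Epithelial polarity and division genes were lower where called, and cytoskeletal genes went both ways. Of 9 apical-basal polarity genes 4 were called lower and none higher. Crumbs (crb), the apical determinant, had 7.59, 9.19 and 10.3 RPKM in ataxin-7 and 31.4, 29.4 and 20.9 RPKM in OregonR (-1.48, SE 0.20, adjusted p = 0.00642). Miranda (mira), an adaptor that carries cell fate determinants in dividing neuroblasts, had 11.04, 39.1 and 56.7 RPKM in ataxin-7 and 201, 180 and 145 RPKM in OregonR (-2.53, SE 0.55, adjusted p = 0.0188). Replicate 1 was far below the other mutant libraries for miranda but not for crumbs. Within the SCAR, Arp2/3 and capping list 3 of 13 genes were called higher and 3 lower. The 2 subunits of the actin capping protein went in opposite directions. The beta subunit gene cpb, at 1704902 to 1706962 on 2L in the BDGP6 annotation, had 91.8, 96.6 and 95.5 RPKM in ataxin-7 and 39.96, 42.8 and 41.3 RPKM in OregonR (1.17, SE 0.07, adjusted p = 0.000714). The alpha subunit gene cpa had 24.1, 15.5 and 16.2 RPKM in ataxin-7 and 38.8, 38.4 and 30.3 RPKM in OregonR (-0.93, SE 0.19, adjusted p = 0.0176). Arpc2, a subunit of the Arp2/3 complex, had 81.8, 79.1 and 81.4 RPKM in ataxin-7 and 40.4, 40.8 and 46.6 RPKM in OregonR (0.91, SE 0.08, adjusted p = 0.00210). Of these 3 cytoskeletal genes cpb and Arpc2 were called in every fit that left out 1 library, and cpa was not.

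Among the annotation classes compared, snoRNA and snRNA genes had the highest shares of calls, 72.7% and 72.2%, against 32.4% over all tested genes. Part of these shares was fixed by the filter, as given below, so the ranking is not a result. Of 99 tested snoRNA genes, many of which guide modification of ribosomal RNA, 65 were called lower and 7 higher (median -1.02, and -0.94 with 68 of 95 lower and 5 higher without replicate 1). Of the 99, 29 passed the filter on low values through OregonR alone, with every ataxin-7 value under 1 RPKM, and 4 through ataxin-7 alone, so these had to differ. Of the other 66, 37 were called lower and 5 higher. Of 18 tested spliceosomal snRNA genes 13 were called higher and none lower (median 1.35, and 1.148 with 11 of 15 higher without replicate 1). Here 3 passed through ataxin-7 alone, and of the other 15, 11 were called higher. These counts describe the genes that passed and are not given as support. The U12 gene snRNA:U12, of the minor spliceosome, had 99.5, 95.2 and 88.9 RPKM in ataxin-7 and 25.4, 27.9 and 33.4 RPKM in OregonR (1.68, SE 0.12, adjusted p = 0.00103). A U1 copy, snRNA:U1:82Eb, had 37.1, 18.4 and 18.02 RPKM in ataxin-7 and 2.03, 2.90 and 2.94 RPKM in OregonR (2.74, SE 0.31, adjusted p = 0.00406). The U1, U2 and U6 genes are near-identical copies, so their single levels are uncertain. Mature snRNAs and snoRNAs carry no poly(A) tail, and the libraries were made from polyadenylated RNA, so what form of these RNAs was counted cannot be told from the table.

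The snoRNA genes were also counted by position, and the difference between positions was not tested. Of 90 tested snoRNA genes inside the span of another gene, 63 were called lower and 3 higher, and of 9 outside any other gene 2 were called lower and 4 higher. Of the 90, 28 passed the filter through OregonR alone and 3 through ataxin-7 alone, and of the other 59, 36 were called lower and 2 higher. The snoRNA gene snoRNA:Me18S-A28a, inside the non-coding host gene Uhg1, had 0.933, 1.02 and 0.994 RPKM in ataxin-7 and 11.1, 7.79 and 8.80 RPKM in OregonR (-2.35, SE 0.20, adjusted p = 0.00158). The tested snoRNA genes are 55 to 316 bases long, so 3 reads give far more RPKM than in 1 kilobase. Values near 1 RPKM, as for this gene in ataxin-7, rest on few reads. Its host Uhg1 had 3.19, 4.25 and 4.96 RPKM in ataxin-7 and 15.8, 12.8 and 11.7 RPKM in OregonR (-1.50, SE 0.21, adjusted p = 0.00738). Hosts were taken as tested genes that overlap a tested snoRNA gene on either strand. A snoRNA gene can thus count several hosts, as snoRNA:nop5-x16-a counts nop5 and x16, both called lower. Of 7 tested Uhg host genes 4 were lower and none higher, but of 31 protein-coding hosts 5 were lower and 3 higher (median 0.02). For example snoRNA:Or-CD9a had 1.148, 2.32 and 4.08 RPKM in ataxin-7 and 15.5, 13.7 and 11.4 RPKM in OregonR (-2.13, SE 0.34, adjusted p = 0.00987), while its host Nop60B, a pseudouridine synthase gene, was higher with 56.9, 45.8 and 42.9 RPKM in ataxin-7 and 30.6, 26.5 and 30.7 RPKM in OregonR (0.70, SE 0.13, adjusted p = 0.0136). The 2 copies of the U3 gene at 54A, which lie in no other gene, were far higher. Of these, snoRNA:U3:54Ab had 39.2, 33.5 and 27.2 RPKM in ataxin-7 and 2.66, 2.41 and 3.64 RPKM in OregonR (3.13, SE 0.21, adjusted p = 0.000935), and reads of U3 copies may be shared among them. The counts were far smaller without an OregonR library, with 2 snoRNA genes lower and 4 higher without OregonR replicate 1 and 3 lower and 5 higher without OregonR replicate 2, of 68 tested each time. The 29 snoRNA genes with every ataxin-7 value under 1 RPKM could not pass the filter once an OregonR library was left out. Part of this fall in the counts was therefore fixed by the filter. Without ataxin-7 replicate 2 there were 19 lower and 4 higher, and without OregonR replicate 3 there were 28 lower and 7 higher of 70. For the 18 snRNA genes, 6 were called higher without OregonR replicate 1 and 4 without OregonR replicate 2.

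**Figure D5:**
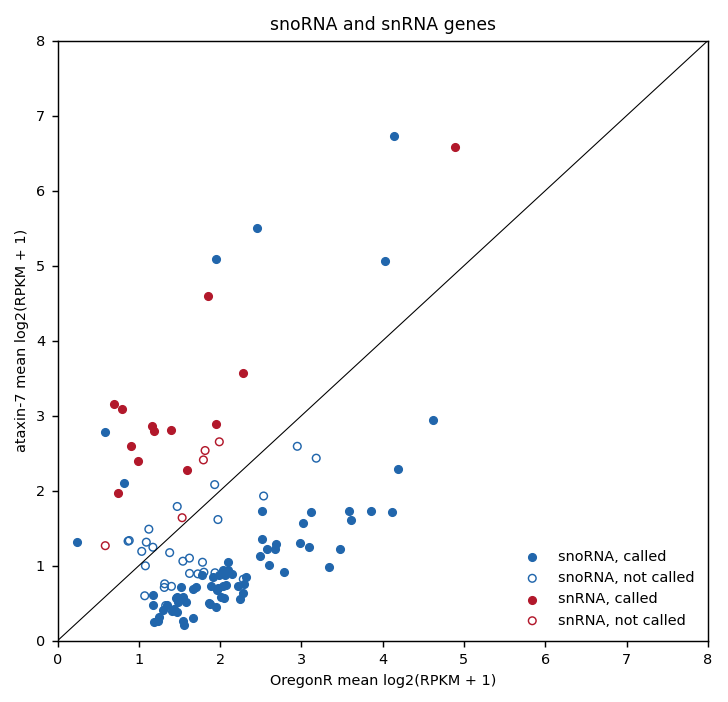
Mean log2(RPKM + 1) in ataxin-7 (vertical axis) against OregonR (horizontal axis) of the 99 tested snoRNA genes (blue) and the 18 tested snRNA genes (red), with filled circles for called genes, open circles for the others and the line of equality. Most snoRNA genes lay below the line and most snRNA genes above it, and the 3 highest snoRNA genes in ataxin-7 were snoRNA:185 and the 2 U3 copies at 54A. Of the snoRNA genes, 29 passed the filter on low values through OregonR alone and 4 through ataxin-7 alone. Of the snRNA genes, 3 passed through ataxin-7 alone.

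The 165 genes called in every fit that left out 1 library, 116 higher and 49 lower, contained no zygotic patterning gene and no signalling gene. Beside those described above they included the juvenile hormone epoxide hydrolase gene Jheh1, with 12.7, 12.02 and 12.6 RPKM in ataxin-7 and 2.64, 2.77 and 3.06 RPKM in OregonR (1.81, SE 0.16, adjusted p = 0.00208). The copper chaperone gene Atox1 had 55.4, 49.1 and 49.6 RPKM in ataxin-7 and 13.9, 15.6 and 20.5 RPKM in OregonR (1.58, SE 0.15, adjusted p = 0.00259). Chchd3, a gene of the mitochondrial inner membrane organizing system, had 88.01, 89.1 and 94.8 RPKM in ataxin-7 and 31.4, 34.5 and 30.8 RPKM in OregonR (1.46, SE 0.08, adjusted p = 0.000502). In all 3 genes the mutant libraries, replicate 1 included, lay within a narrow range above OregonR. Among the genes called lower was TBPH, the fly homologue of TDP-43, with 8.59, 8.74 and 8.85 RPKM in ataxin-7 and 31.8, 27.7 and 21.05 RPKM in OregonR (-1.50, SE 0.17, adjusted p = 0.00416). These genes were chosen after their values were seen.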

How the data were processed

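Polyadenylated RNA of hand-sorted embryos was extracted with the RNeasy Plus Mini Kit and made into libraries with the TruSeq Stranded RNA kit. Per the labels, the submitters' processing notes name CASAVA 1.8.2, TopHat2 2.0.13, edgeR 3.14.0 and genome build dm3. The deposited RPKM table of the authors held 15682 genes in 9 libraries, of which 6 were used here, and the 3 non-stop libraries were not. Whether strand was used in counting is not given in the sources used here. For 83.9% of 9094 genes with introns, the gene length behind the RPKM was within 5% of the span with introns, so that long genes have low RPKM and overlapping genes (5520 genes) may share reads. Whole reads were recovered from the RPKM steps for all 13688 genes above 0 (relative tolerance 3e-13), which gave the depths.

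Genes that reached 1 RPKM in 3 or more libraries were tested on log2(RPKM + 1) with limma 3.58.1 (R 4.3.3; intensity trend, two-sided, Benjamini-Hochberg over 7049 genes, threshold 0.05). On simulated data with 200 changed genes, drawn with the same dispersion of 0.01 for every gene, limma recovered 87.5% at 1.5-fold and 100% at 2-fold and 4-fold, and 2.23%, 6.98% and 7.83% of the calls at 1.5-fold, 2-fold and 4-fold were false. No simulated library stood apart as ataxin-7 replicate 1 did, so these rates do not carry over to the real libraries. Lists are described by counts and medians. Named were Atxn7, up to 3 called, non-overlapping genes per list and direction with the largest change, the 10 largest without a list, and the genes in which ataxin-7 replicate 1 differed most from replicates 2 and 3. The genes hb, sisA, nullo, srp, Syx1A, Slbp, Caf1-105, Jheh1, Atox1, Chchd3 and TBPH, some small RNA genes with Uhg1, and single marker genes were chosen after their values were seen. Members and lists were chosen with earlier results of these data known. Of the list items, 25 matched no symbol in the table. Coordinates are of the BDGP6 annotation (Ensembl release 115), not of dm3. Alternatives were another pseudocount, filters, scalings, length-bin centring, limma-voom on recovered reads, array weights, a replicate block and leaving out each library. No genome sequence was used, so no promoter sequence is shown.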

Additional observations from a re-analysis of the deposited data

How the results depend on the processing

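With all 6 libraries 2285 genes were called, and with 1 library left out 201 to 3541. Array weights called 5430 genes. The weights were 0.0736, 5.49 and 0.916 for ataxin-7 replicates 1, 2 and 3, and 1.59, 4.88 and 0.349 for OregonR replicates 1, 2 and 3. Same-numbered libraries did not deviate together (r = 0.02, 0.06 and -0.06), so a replicate block, which called 471, pairs libraries by number only. The 7 other alternatives, among them a minimum of 5 RPKM and limma-voom, called 1892 to 2687 genes. Length-bin centring moved the median log2 fold change of all genes to -0.09, against 0.05, and limma-voom moved it to 0.14. Atxn7 passed the threshold under array weights (0.43) and limma-voom (0.49) and without ataxin-7 replicate 1, and its log2 fold change was 0.31 to 0.48 with 1 library left out. Prosalpha6 turned to 0.075 under quantile normalization. Gapdh2 turned to -0.12 under array weights and was -0.21 to 2.32 with 1 library left out. The cause was not tested. Of the other single-gene values under the alternatives, 2599 kept direction and call, 1017 lost the call and 11 gained it. Depth limits genes near 0, where 3 reads in 1 kilobase give 0.0341 to 0.0402 RPKM. In shorter genes, such as those of snoRNAs, 3 reads give a higher RPKM. Every test is limited by 3 libraries a group.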

Other observations

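Several gene groups not described above held differences in both directions. Of 20 tested ubiquitin-specific protease genes, whose products remove ubiquitin, 4 were called higher and 3 lower (4 and 4 without ataxin-7 replicate 1), against 32.4% called over all genes. Fat facets (faf) had 57.2, 43.6 and 40.8 RPKM in ataxin-7 and 11.4, 13.6 and 19.1 RPKM in OregonR (1.63, SE 0.22, adjusted p = 0.00604), whereas scny had 24.01, 26.2 and 27.9 RPKM in ataxin-7 and 41.1, 43.8 and 38.8 RPKM in OregonR (-0.64, SE 0.10, adjusted p = 0.00927). Of 19 autophagy genes 3 were called higher and 6 lower. Atg17, a scaffold of the initiation complex, had 14.6, 17.9 and 24.1 RPKM in ataxin-7 and 72.8, 71.1 and 54.3 RPKM in OregonR (-1.77, SE 0.20, adjusted p = 0.00410), and Atg4b, a protease, had 23.4, 13.7 and 13.1 RPKM in ataxin-7 and 2.56, 2.96 and 5.63 RPKM in OregonR (1.92, SE 0.33, adjusted p = 0.0120). The gap junction gene Inx2 had 48.4, 78.2 and 91.4 RPKM in ataxin-7 and 199.9, 188 and 152 RPKM in OregonR (-1.34, SE 0.24, adjusted p = 0.0127). The dosage compensation gene msl-2, which acts in males, had 5.23, 8.67 and 14.8 RPKM in ataxin-7 and 40.99, 41.97 and 31.3 RPKM in OregonR (-1.98, SE 0.34, adjusted p = 0.0117). Groups did not overlap for any of these genes, as the choice of named genes required. Of the genes named in this paragraph, faf and msl-2 overlap another gene. Without OregonR replicate 1 or without OregonR replicate 2, no innexin or dosage compensation gene was called, and 1 autophagy gene and 1 ubiquitin-specific protease gene were.

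Among annotation classes, 22 of 69 tested pseudogenes were called higher and 7 lower (26 and 14 without ataxin-7 replicate 1). Among genes in no list, Tep2, a thioester-containing protein gene, had 8.54, 8.40 and 7.80 RPKM in ataxin-7 and 0.441, 0.468 and 0.604 RPKM in OregonR (2.62, SE 0.17, adjusted p = 0.000894). With every OregonR value under 1 RPKM, Tep2 passed the filter on low values through ataxin-7 alone. The peroxidase gene Pxt had 184, 47.8 and 36.6 RPKM in ataxin-7 and 7.30, 8.61 and 18.6 RPKM in OregonR (2.59, SE 0.64, adjusted p = 0.0262). The gene kek1, an inhibitor of EGF receptor signalling, had 0.0821, 0.232 and 0.536 RPKM in ataxin-7 and 8.31, 7.98 and 6.498 RPKM in OregonR (-2.75, SE 0.21, adjusted p = 0.00132). With every ataxin-7 value under 1 RPKM, it passed the filter through OregonR alone. Pus10, a pseudouridine synthase gene, had 2.64, 3.32 and 5.98 RPKM in ataxin-7 and 24.9, 27.1 and 30.1 RPKM in OregonR (-2.56, SE 0.27, adjusted p = 0.00304).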
